A study of Drosophila melanogaster with 34 samples.

Results

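BEL, DIVER, BATUMI, DIVER2 and MAX are the LTR retrotransposons of the BEL/Pao superfamily other than roo, and they were followed here through RNA, Piwi-bound small RNA, accessibility and chromatin proteins. They were chosen by name, with earlier results of these data known, as 5 of the 129 transposon consensus rows that each of 11 tables holds. The cells were ovarian somatic cells (OSC), a cultured line of Drosophila follicle-type cells grown at 26 degrees, in which all groups had received siRNA by transfection. Knockdowns of Piwi, linker histone H1, HP1a and Maelstrom are called Piwi-KD, H1-KD, HP1a-KD and Mael-KD, and cells with siRNA against EGFP are Control-KD. RNA was compared in Piwi-KD, H1-KD and Control-KD, as were H3K9me3 and HP1a ChIP. Piwi-bound small RNA was compared in H1-KD and Control-KD, ATAC in all 4 knockdowns and Control-KD, and H1 ChIP in Piwi-KD, HP1a-KD, Mael-KD and Control-KD. Apart from 3 Control-KD libraries of H1 ChIP and 3 of ChIP input, each condition had 1 column per assay. For RNA, ATAC, H3K9me3 and HP1a, all knockdowns were therefore set against the same Control-KD column. The tables used here hold transposons alone, so neither the knockdowns nor the OSC identity could be checked against host genes. All groups come from 1 cell line.

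BEL/Pao elements are one of the superfamilies of LTR retrotransposons in insects, beside the Gypsy and Copia groups. Each is transcribed from its long terminal repeat into an RNA that encodes Gag and Pol proteins, and this RNA is also the template that reverse transcriptase copies into new DNA insertions. In OSC, Piwi carries piRNAs into the nucleus and silences matching transposons at the level of transcription. Maelstrom acts with Piwi in that silencing, H3K9me3 is the histone mark laid down on silenced copies, HP1a is the protein that reads the mark, and H1 binds linker DNA between nucleosomes and compacts chromatin. The best-known Piwi targets in these cells are Gypsy-group elements. BEL gave its name to the superfamily, and roo, its most familiar member in Drosophila, is represented by the rows ROO and ROOA. A consensus row stands for all genomic copies of its family and has no single position in the genome. Lengths recovered from the values were 5765 bp for BEL, 5867 bp for DIVER, 8235 bp for BATUMI, 4532 bp for DIVER2 and 8235 bp for MAX.

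A library's total, worked out from the values, lay between 20625614 and 25544579 reads for RNA, between 6973985 and 7397276 for small RNA, between 3381967 and 5674137 for ATAC, and between 1560307 and 4266312 for input and ChIP. All 5 elements were above the filter on low values, which left 96 transposons to compare. With 1 column per condition no spread between replicates can be had, so differences carry a 95% counting interval only, and a p-value is given for H1 ChIP alone. A log2 change is that of knockdown over Control-KD after a small pseudocount was added to both. Intervals leave the pseudocount out, and at low values the printed change can therefore lie outside them.

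In Control-KD the 5 elements fell into a high and a low class of RNA. RPKM, reads scaled by consensus length and by the library's total, stood at 234 for DIVER and 174 for BEL, ranks 4 and 5 of the 129 rows. DIVER2 had 2.88 RPKM, BATUMI 2.81 and MAX 1.42, at ranks 61, 62 and 76. The DNA content behind these levels differed, and it is read from input: mean input RPKM over 3 Control-KD libraries was 169 ± 15.9 for BEL, 140 ± 15.2 for DIVER, 91.2 ± 15.5 for MAX, 48.6 ± 5.34 for BATUMI and 24.5 ± 8.02 for DIVER2 (SD, n = 3 each). Each element differed from its neighbour in this order by more than either SD, and only the ranges of BEL and DIVER overlapped, at 155 to 186 and 127 to 157 RPKM. The spread went with the sample number in the labels. At each element the inputs of number 1 were above those of numbers 2 and 3, whatever the knockdown. DIVER2 input was 33.6 RPKM in Control-KD, 29.3 in Piwi-KD and 31.7 in H1-KD of number 1. It was 18.6 in Control-KD and 18.7 in Mael-KD of number 2, and 21.3 in Control-KD and 23.0 in HP1a-KD of number 3. RNA RPKM over input RPKM was 1.49 for DIVER and 0.933 for BEL, ranks 12 and 16 of 96, and 0.0855 for DIVER2, 0.0520 for BATUMI and 0.0130 for MAX, ranks 46, 57 and 86. MAX thus had more DNA than BATUMI and DIVER2 and the least RNA per DNA of the 5.

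The chromatin of Control-KD cells ordered the elements in nearly the opposite way. H3K9me3 RPKM over input RPKM was 3.58 at MAX and 3.44 at BATUMI, 2.57 at DIVER2, 2.26 at BEL and 1.54 at DIVER, with a median of 2.73 over the 96 transposons. HP1a over input was 2.60 at BATUMI, 2.48 at MAX, 2.03 at DIVER2, 1.66 at BEL and 1.27 at DIVER, where the median was 1.81. The counting intervals of BATUMI and MAX overlapped for both proteins. BATUMI and MAX ranked 8 and 14 of 96 for HP1a, and DIVER ranked 79. ATAC over input did not follow that order: it was 2.23 at BATUMI, 1.87 at DIVER2, 1.30 at DIVER, 0.972 at BEL and 0.928 at MAX, with a median of 1.15. That order depends on the input library. Over the other two Control-KD inputs DIVER2, with 3.39 and 2.95, was above BATUMI, with 2.77 and 2.50. MAX, with 1.28 and 1.17 over those inputs, was above BEL and above the medians of 1.21 and 1.14.

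**Figure D1:**
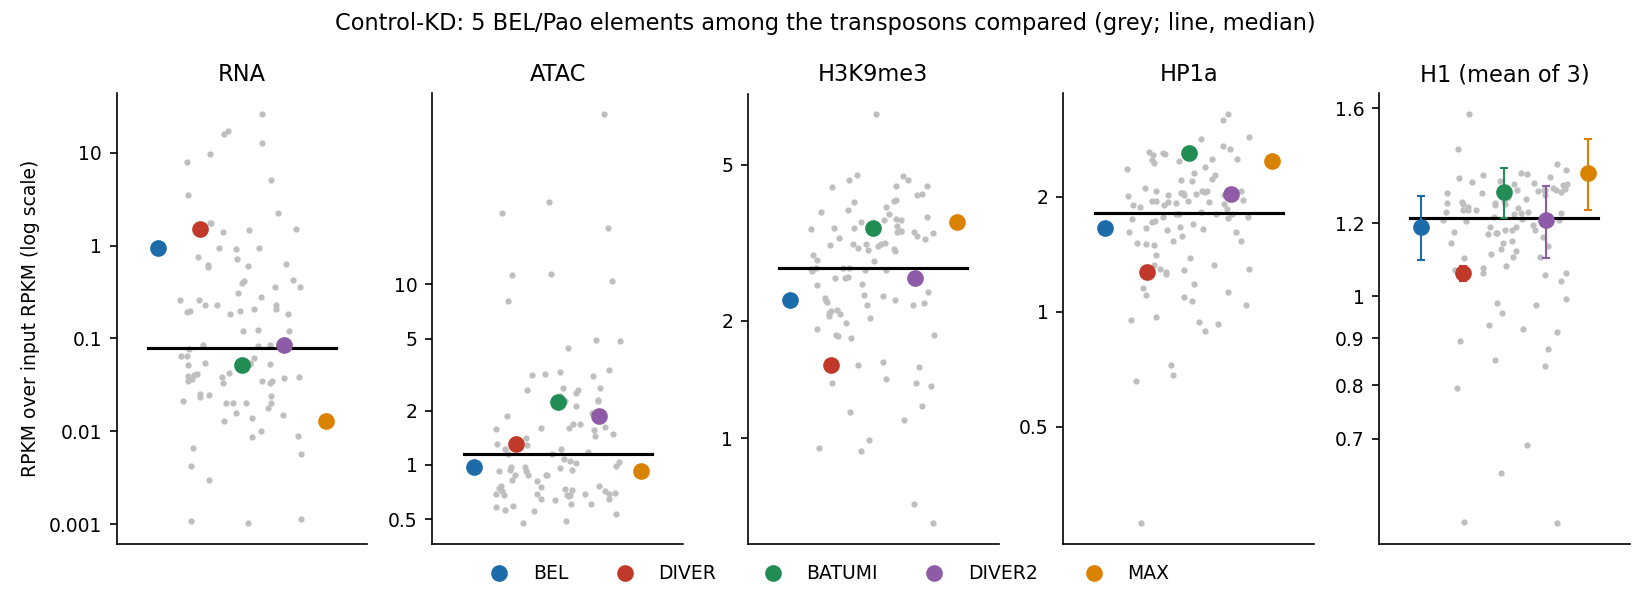
RNA, ATAC, H3K9me3, HP1a and H1 in Control-KD cells, each as RPKM over input RPKM on a log axis. Coloured points are the 5 elements, grey points the 96 transposons compared, the black line their median, and bars on H1 the SD of 3 libraries. DIVER (1.49) and BEL (0.933) lie high for RNA and below the median for H3K9me3, HP1a and H1, and MAX lies low for RNA (0.0130) and above the median for those 3.

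H1 occupancy was the only chromatin measure with more than 1 Control-KD column. H1 RPKM over input RPKM in the 3 Control-KD libraries was 1.48, 1.36 and 1.24 at MAX, 1.39, 1.23 and 1.27 at BATUMI, and 1.33, 1.12 and 1.17 at DIVER2. It was 1.29, 1.17 and 1.11 at BEL and 1.08, 1.05 and 1.04 at DIVER. DIVER was the lowest of the 5 in each of the 3 libraries, at 1.06 ± 0.019 (SD, n = 3), and BEL next to it had 1.19 ± 0.095. MAX had 1.36 ± 0.120, BATUMI 1.30 ± 0.082 and DIVER2 1.21 ± 0.109, and the ranges of these 3 and of BEL over the 3 libraries overlapped one another. Library 1 gave the highest ratio at every element.

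In Piwi-KD the RNA of BATUMI was slightly higher, and that of the other 4 elements was lower or little different. None of the 5 was at least 2-fold higher, where 24% of the 96 transposons were, and 1, DIVER, was at least 2-fold lower, where 3.12% were. DIVER had 102 RPKM (12370 reads) in Piwi-KD and 234 RPKM (33480 reads) in Control-KD, a log2 change of -1.19 (interval -1.22 to -1.16) and the second lowest of 96. DIVER2 had 1.18 RPKM (110 reads) in Piwi-KD and 2.88 RPKM (318 reads) in Control-KD. Its log2 change of -0.99 (interval -1.62 to -0.97) was just short of 2-fold and the fourth lowest, and the ratio without pseudocount was 0.409.

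The other 3 moved less. BEL had 146 RPKM in Piwi-KD and 174 in Control-KD (-0.25, interval -0.28 to -0.22). BATUMI had 3.66 RPKM (622 reads) in Piwi-KD and 2.81 RPKM (565 reads) in Control-KD (0.33, interval 0.21 to 0.55). MAX had 1.40 RPKM (237 reads) in Piwi-KD and 1.42 RPKM (285 reads) in Control-KD (-0.02), and its interval, -0.28 to 0.23, held 0. The median change of the 5 was -0.25, against 0.11 over all 96. A list of 15 elements named as Piwi targets in OSC had 14 members compared. Their median was 4.96, and 11 were at least 2-fold higher. That list was chosen with earlier results of these data known, so it is a reference and not a test. Of the roo rows, ROO was 3.67-fold higher, with 51.4 RPKM (9201 reads) in Piwi-KD and 2967 reads in Control-KD (1.84), and ROOA had 2.43 RPKM in Piwi-KD and 2.67 RPKM in Control-KD (-0.11). Together the 5 elements gave 0.149% of all RNA reads in Piwi-KD and 0.242% in Control-KD. Transposons in all took 25.9% of the RNA reads in Piwi-KD and 14.9% in Control-KD. In bulk samples fewer cells that hold a transcript and less transcript per cell cannot be told apart.

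In H1-KD the 3 elements with little RNA in Control-KD were higher and the 2 with much RNA were not. Whether the starting level bears on the change was not tested. BATUMI had 71.6 RPKM (15055 reads) in H1-KD and 2.81 RPKM (565 reads) in Control-KD, 25.5-fold more, and its log2 change of 4.42 (interval 4.55 to 4.79) was the third highest of 96. MAX had 12.9 RPKM (2709 reads) in H1-KD and 1.42 RPKM (285 reads) in Control-KD, 9.08-fold more (2.77, interval 3.01 to 3.36). DIVER2 had 8.80 RPKM (1019 reads) in H1-KD and 2.88 RPKM (318 reads) in Control-KD, 3.06-fold more (1.45, interval 1.43 to 1.80). These 3 of 5 passed 2-fold upward, where 58.3% of the 96 transposons did, so the count itself is close to the background. With a pseudocount equal to the table's median DIVER2 stood at 0.77, and 2 of the 5 passed.

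BEL had 160 RPKM (23503 reads) in H1-KD and 174 RPKM (24432 reads) in Control-KD (-0.12, interval -0.15 to -0.10). DIVER had 187 RPKM (27960 reads) in H1-KD and 234 RPKM (33480 reads) in Control-KD (-0.32, interval -0.35 to -0.30), the third lowest of 96. No transposon was at least 2-fold lower (0%). The median over the 96 was a change of 1.19 here. Set against it BATUMI stood at 3.23, MAX at 1.58, DIVER2 at 0.26, BEL at -1.31 and DIVER at -1.52. On that scale BATUMI and MAX were still more than 2-fold higher, BEL and DIVER were more than 2-fold lower, and DIVER2 lay near the median.

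RNA per input DNA shows how far the low elements came. In H1-KD, RNA over input was 1.29 for BATUMI, 1.20 for DIVER, 0.886 for BEL, 0.278 for DIVER2 and 0.123 for MAX, against 0.0520, 1.49, 0.933, 0.0855 and 0.0130 for the same elements in Control-KD. BATUMI, near the middle of the 96 in Control-KD, reached the level of DIVER and BEL in H1-KD. MAX remained the lowest of the 5. Among the roo rows, ROO was 2.64-fold higher, with 37.0 RPKM (8204 reads) in H1-KD and 2967 reads in Control-KD (1.37), and ROOA had 4.40 RPKM in H1-KD and 2.67 RPKM in Control-KD (0.62).

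**Figure D2:**
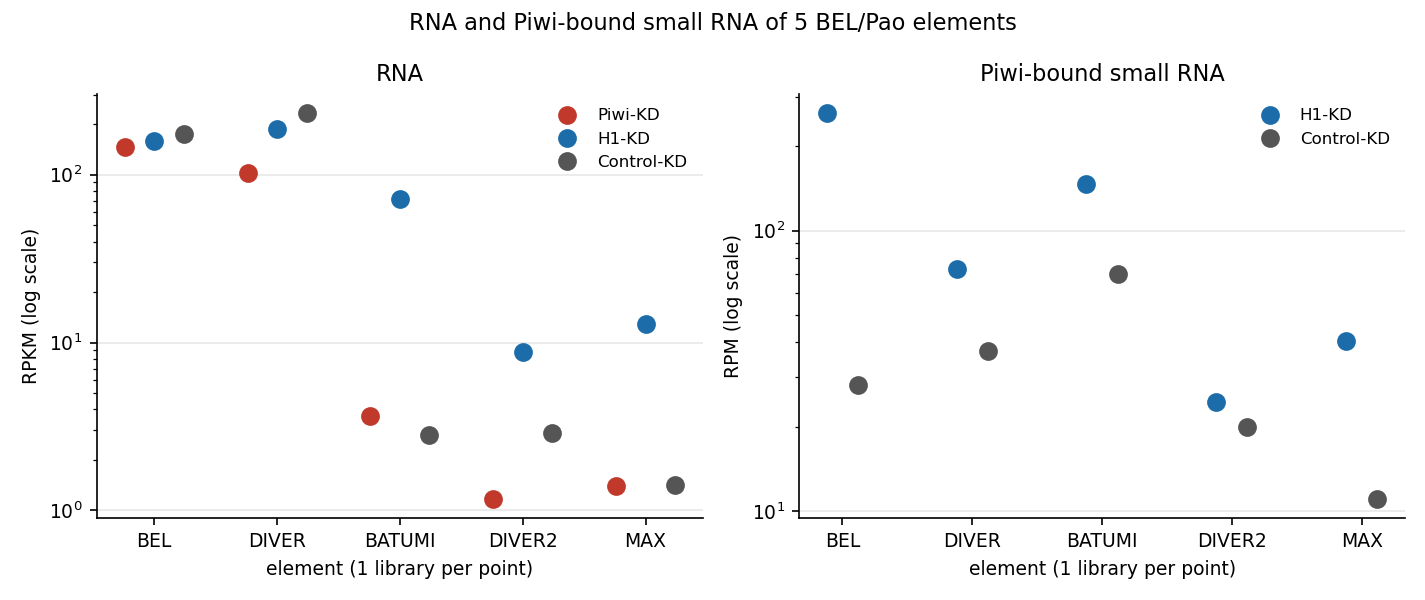
RNA (left, RPKM) and Piwi-bound small RNA (right, RPM) of the 5 elements on log axes, 1 library per point. BATUMI RNA stands at 71.6 RPKM in H1-KD, apart from 3.66 in Piwi-KD and 2.81 in Control-KD, and BEL small RNA at 263 RPM in H1-KD and 28.3 RPM in Control-KD.

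Small RNA bound to Piwi was sparse for all 5 elements in Control-KD. BATUMI had 70.0 RPM (reads scaled by the library's total alone), DIVER 37.2, BEL 28.3, DIVER2 20.0 and MAX 11.1, at ranks 55 to 90 of 129, against 5462 RPM for ROO at rank 23. Per kilobase of consensus the order was BATUMI with 8.50, DIVER with 6.34, BEL with 4.90, DIVER2 with 4.41 and MAX with 1.35 RPM per kb. The 5 together gave 0.163% of the transposon small RNA reads in H1-KD and 0.0474% in Control-KD.

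BEL, whose RNA was little different, had the most small RNA of the 5 in H1-KD. It had 263 RPM (1835 reads) in H1-KD and 28.3 RPM (209 reads) in Control-KD, 9.31-fold more (2.90, interval 3.01 to 3.43), the sixth highest of 96. MAX had 40.4 RPM (282 reads) in H1-KD and 11.1 RPM (82 reads) in Control-KD, 3.65-fold more (1.34, interval 1.51 to 2.24). These 2 passed 2-fold upward, where 33.3% of the 96 did and 0% passed it downward, and with a pseudocount equal to the table's median BEL alone did. BATUMI, whose RNA differed most, had 146 RPM (1021 reads) in H1-KD and 70.0 RPM (518 reads) in Control-KD (0.98, interval 0.91 to 1.22), just short of 2-fold with the pseudocount and 2.09-fold without it. DIVER had 73.0 RPM (509 reads) in H1-KD and 37.2 RPM (275 reads) in Control-KD (0.84, interval 0.76 to 1.19). DIVER2 had 24.5 RPM (171 reads) in H1-KD and 20.0 RPM (148 reads) in Control-KD (0.21), and its interval, -0.03 to 0.62, held 0. ROO had 34352 RPM in H1-KD and 5462 RPM in Control-KD (2.65), and ROOA 1056 RPM in H1-KD and 487 RPM in Control-KD (1.11). The median over the 96 was a change of 0.27. Set against it BEL stood at 2.63, MAX at 1.07, BATUMI at 0.71, DIVER at 0.57 and DIVER2 at -0.06.

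Accessibility, measured by ATAC RPKM, was higher at DIVER in H1-KD, HP1a-KD and Mael-KD. It was lower at the other 4 elements in Piwi-KD and Mael-KD, where the median of the 96 was lower too. DIVER had 357 RPKM in H1-KD, 309 in HP1a-KD, 269 in Mael-KD and 205 in Piwi-KD, against 204 in Control-KD. In the same order the log2 changes were 0.79, 0.58, 0.39 and 0.00, the first 3 with an interval above 0, and they ranked 9, 31, 11 and 19 from the highest of 96. The change in H1-KD passed 1.5-fold, where 12.5% of the 96 transposons were higher by that much. The change in HP1a-KD was 1.51-fold without the pseudocount and 0.58 on the log2 scale with it, just under the threshold that 31.2% passed. The same element had less RNA in H1-KD, so RNA and accessibility differed in direction there.

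BEL, BATUMI, DIVER2 and MAX passed 1.5-fold in none of the 4 knockdowns. BEL had 179 RPKM in H1-KD, 177 in HP1a-KD, 138 in Mael-KD and 145 in Piwi-KD, against 181 in Control-KD. BATUMI had 104, 114, 81.5 and 85.2 RPKM in these knockdowns, against 120 in Control-KD, so its H1-KD change was -0.20 (interval -0.28 to -0.14) beside an RNA change of 4.42. All 4 elements were below Control-KD in H1-KD, but the intervals of BEL (-0.02, interval -0.08 to 0.05) and MAX held 0. DIVER2 and MAX were above Control-KD in HP1a-KD. DIVER2 had 51.8 RPKM in H1-KD, 72.6 in HP1a-KD, 46.4 in Mael-KD and 41.3 in Piwi-KD, against 63.0 in Control-KD. MAX had 97.3, 112, 78.6 and 72.3 RPKM in these knockdowns, against 101 in Control-KD, with -0.05 (interval -0.12 to 0.02) in H1-KD beside an RNA change of 2.77. In Piwi-KD and Mael-KD these 4 elements were lower than in Control-KD, with log2 changes of -0.31 to -0.54 and of -0.34 to -0.53. The Piwi-KD change of DIVER2, -0.54, was -0.60 with a pseudocount of 0.01 of the median and then past 1.5-fold.

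Most transposons shared that direction, with 77 of 96 below Control-KD in Piwi-KD and 71 of 96 in Mael-KD. Transposons in all took 25.6% of the ATAC reads in Piwi-KD and 20.7% in Mael-KD, against 11.2% in Control-KD. RPKM is scaled by the library's total, and how far these shares move the values of other rows was not tested. The median of the 96 was -0.08 in H1-KD, 0.21 in HP1a-KD, -0.23 in Mael-KD and -0.32 in Piwi-KD, and relative to it BEL stood at 0.01 in Piwi-KD and -0.15 in Mael-KD and BATUMI at -0.15 and -0.30. DIVER stood above the median in all 4, by 0.87 in H1-KD, 0.37 in HP1a-KD, 0.62 in Mael-KD and 0.32 in Piwi-KD. At 1.5-fold 11.5% of the 96 were higher in Piwi-KD and 8.33% in Mael-KD, and 2.08% were lower in each. The 4 ATAC comparisons share 1 Control-KD column, and the sources used here do not say whether a column pools replicate samples.

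**Figure D3:**
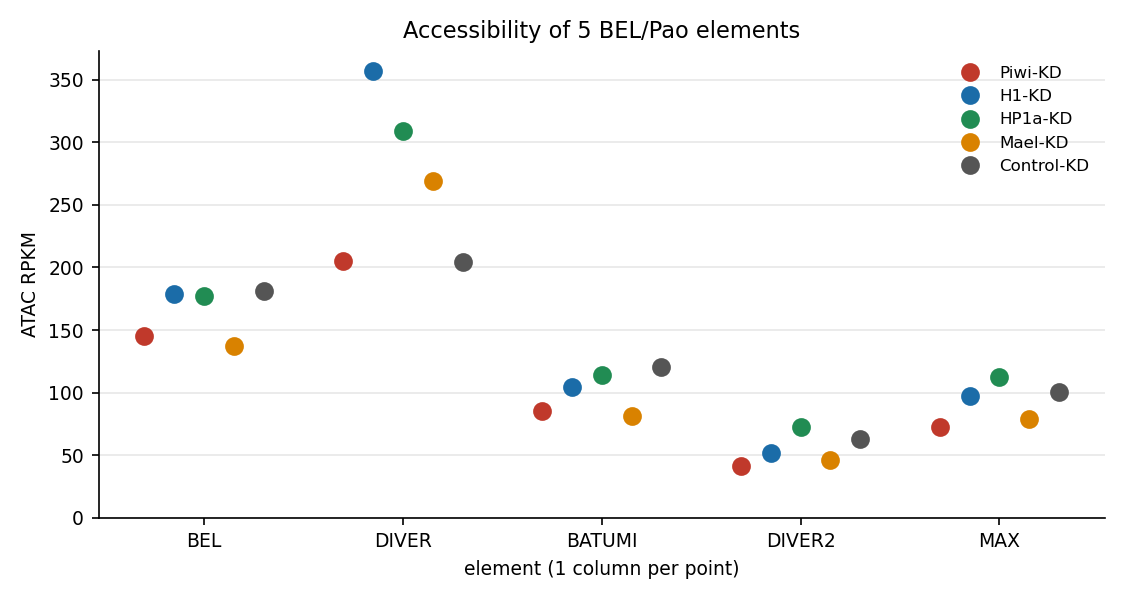
ATAC RPKM of the 5 elements in 4 knockdowns and Control-KD, 1 column per point on a linear axis. DIVER stands at 357 in H1-KD, at 309 in HP1a-KD and at 269 in Mael-KD, above 205 in Piwi-KD and 204 in Control-KD, and no other element leaves its Control-KD value upward by as much.

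H3K9me3 over input was higher than Control-KD at all 5 elements in Piwi-KD. The ratio was 4.50 in Piwi-KD and 2.57 in Control-KD at DIVER2 (0.72, interval 0.60 to 1.02), the fourth highest change of 96. At MAX it was 5.44 in Piwi-KD and 3.58 in Control-KD (0.59, interval 0.52 to 0.69), and these 2 elements passed 1.5-fold, where 13.5% of the 96 were higher and 13.5% lower by that much. That split, 13 higher of 26, was 1 higher of 15 when centred on the median, 20 of 33 with a pseudocount of 0.01 of the median and 1 of 10 with one equal to it. BATUMI fell just short, with 5.08 in Piwi-KD and 3.44 in Control-KD (0.53, interval 0.45 to 0.68). BEL had 3.06 in Piwi-KD and 2.26 in Control-KD (0.43), and DIVER 1.95 in Piwi-KD and 1.54 in Control-KD (0.32). The median of the 96 was itself 0.32, and relative to it the changes were 0.40 at DIVER2, 0.27 at MAX, 0.22 at BATUMI, 0.11 at BEL and 0.01 at DIVER, none past 1.5-fold. Nor did any of the 5 pass it for H3K9me3 without division by input. Of the 14 elements compared from the list of Piwi targets, again a reference only, 7 were at least 1.5-fold lower and 1 higher, with a median of -0.55.

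In H1-KD the H3K9me3 ratio was above Control-KD at all 5, with none past 1.5-fold, where 2.08% of the 96 were higher and 6.25% lower. The Piwi-KD and H1-KD comparisons share 1 Control-KD H3K9me3 column and its input, so they are not independent of each other. BATUMI had 4.59 in H1-KD and 3.44 in Control-KD (0.39, interval 0.30 to 0.53), the largest change of the 5 and in the element with the largest RNA change. MAX had 4.20 in H1-KD and 3.58 in Control-KD (0.22, interval 0.14 to 0.32). BEL (2.41 in H1-KD and 2.26 in Control-KD), DIVER (1.73 in H1-KD and 1.54 in Control-KD) and DIVER2 (2.85 in H1-KD and 2.57 in Control-KD) changed by 0.09, 0.16 and 0.13, and the interval of DIVER2, -0.07 to 0.37, held 0. The median of the 96 was -0.01.

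HP1a over input passed 1.5-fold at none of the 5 elements in either knockdown, where 2.08% of the 96 were higher and 6.25% lower in Piwi-KD, and 0% higher and 2.08% lower in H1-KD. BATUMI had 2.66 in Piwi-KD and 3.51 in H1-KD, against 2.60 in Control-KD. Its H1-KD change of 0.41 (interval 0.31 to 0.55) was the eighth highest of 96. MAX had 2.68 in Piwi-KD and 2.90 in H1-KD, against 2.48 in Control-KD. At the other 3 elements the changes were smaller than that of BATUMI in H1-KD. DIVER2 had 2.36 in Piwi-KD and 2.22 in H1-KD, against 2.03 in Control-KD, and both intervals held 0. In Piwi-KD the intervals of DIVER, -0.05 to 0.14, and BATUMI, -0.09 to 0.15, also held 0. Without division by input the Piwi-KD change of DIVER2 was 0.02. DIVER2 input was 29.3 RPKM in Piwi-KD and 33.6 RPKM in Control-KD. The same inputs divide its H3K9me3 change in Piwi-KD, which was 0.55 without them. BEL had 1.79 in Piwi-KD and 1.83 in H1-KD, against 1.66 in Control-KD, and DIVER 1.31 in Piwi-KD and 1.42 in H1-KD, against 1.27 in Control-KD. All 5 were above Control-KD in both knockdowns as deposited, but both comparisons share 1 Control-KD HP1a column and its input. Relative to the medians of 0.05 and 0.12, DIVER and BATUMI were below 0 in Piwi-KD and DIVER2 was in H1-KD.

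**Figure D4:**
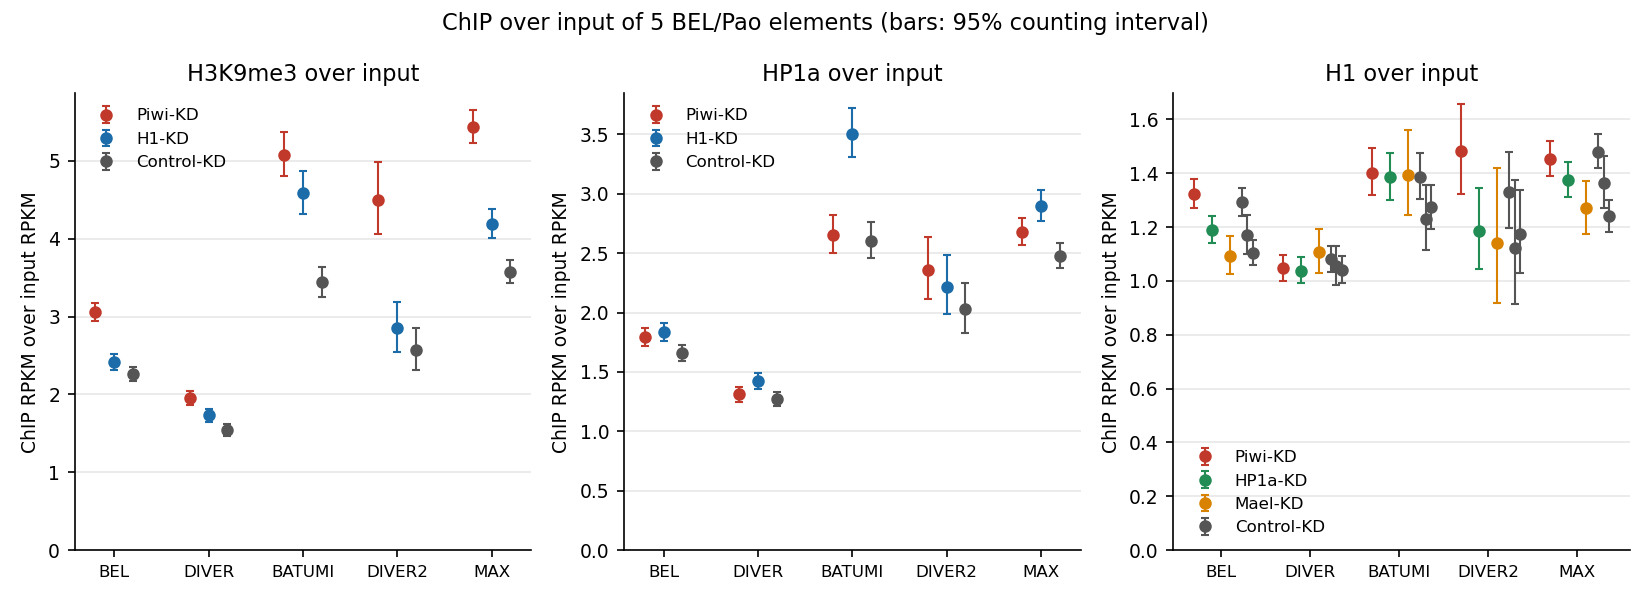
H3K9me3, HP1a and H1 ChIP RPKM over input RPKM of the 5 elements, 1 library per point with its 95% counting interval. BATUMI is set apart by HP1a in H1-KD (3.51, against 2.60 in Control-KD), and the H1 points of the knockdowns lie among or near the 3 Control-KD points.

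H1 over input was tested with limma across the 96 transposons, each knockdown library against the 3 Control-KD libraries. The lone knockdown library is assumed to vary like the controls. DIVER2 had 1.48 under Piwi-KD, 1.18 under HP1a-KD and 1.14 under Mael-KD, against 1.21 ± 0.109 in Control-KD (SD, n = 3), and its Piwi-KD change was 0.30 with a limma adjusted p of 0.654. Against the Control-KD library of the same number that change was 0.14. BEL had 1.32 under Piwi-KD, 1.19 under HP1a-KD and 1.09 under Mael-KD. BATUMI had 1.40 under Piwi-KD, 1.39 under HP1a-KD and 1.39 under Mael-KD, and MAX 1.45, 1.38 and 1.27 in these knockdowns. At MAX all 3 lay inside the Control-KD range of 1.24 to 1.48, and at BATUMI close to the highest Control-KD value of 1.39. DIVER had 1.05 under Piwi-KD, 1.04 under HP1a-KD and 1.11 under Mael-KD. Against the Control-KD library of the same number, the median change of the 96 was -0.11 in HP1a-KD, with 77 below 0. Relative to it MAX stood at 0.26, BATUMI and BEL at 0.22, DIVER2 at 0.13 and DIVER at 0.11. The counting intervals of MAX, 0.05 to 0.25, and BEL, 0.02 to 0.19, lay above 0, and those of the others held 0. In Piwi-KD and Mael-KD, with medians of 0.02 and -0.05, the elements lay on both sides of the median.

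Of these 15 changes 0 passed an adjusted p of 0.05 by limma, 0 had an unadjusted p under 0.05, and 0 reached 1.5-fold against the Control-KD library of the same number, where 6.25% of the 96 did under Piwi-KD, 4.17% under HP1a-KD and 2.08% under Mael-KD. Limma adjusted p ranged from 0.654 to 0.995, and in Piwi-KD it depended on Control-KD library 1. That library carries the same number as the Piwi-KD library. Without it the limma adjusted p of DIVER2, BEL and BATUMI was lower but stayed above the threshold for a call. The DIVER2 change was then 0.38, set against libraries of other numbers only. Against library 1 alone the Piwi-KD changes were 0.14 for DIVER2, 0.03 for BEL and 0.01 for BATUMI. Sample number and knockdown cannot be told apart once library 1 is left out. The shared standard error was 0.195 on the log2 scale, so the 95% interval of the DIVER2 change in Piwi-KD was -0.09 to 0.68, with all 3 Control-KD libraries. Across all 96 transposons the test called 5.21% under Piwi-KD, 4.17% under HP1a-KD and 1.04% under Mael-KD.

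Over the 14 comparisons, MAX passed the fold threshold upward in 3, DIVER2 in 2, and BEL, BATUMI and DIVER in 1 each, and DIVER passed it downward in 1. Upward passes fell in RNA (58.3% of the 96 passed), small RNA (33.3%) and ATAC (12.5%) in H1-KD, and in H3K9me3 in Piwi-KD (13.5%). The downward pass was for RNA in Piwi-KD, where 3.12% passed. The H3K9me3 passes of MAX and DIVER2 were lost on centring and without input. Likeness was measured as the root mean square difference over the 14 changes, each centred on its median and divided by its SD, among the 68 transposons compared throughout. MAX was nearest to DMRT1B (0.332) and DMRT1A (0.367), with DIVER2 at 0.504 and BATUMI at 0.573, and the median distance of MAX to transposons outside the 5 was 0.846. BATUMI was nearest to DMRT1A (0.516) and INVADER3 (0.664). DIVER2 was nearest to DMRT1B (0.383) and NOMAD (0.388), BEL to CIRCE (0.388) and DOC3 (0.464), and DIVER to HMSBEAGLE (0.586) and TC1 (0.589). BEL and DIVER lay 0.712 apart, where their medians to outside transposons were 0.904 and 0.952. BEL lay about as far from MAX (0.704) and DIVER2 (0.707). BATUMI and DIVER lay 1.24 apart, where the median of BATUMI to outside transposons was 1.13.

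**Figure D5:**
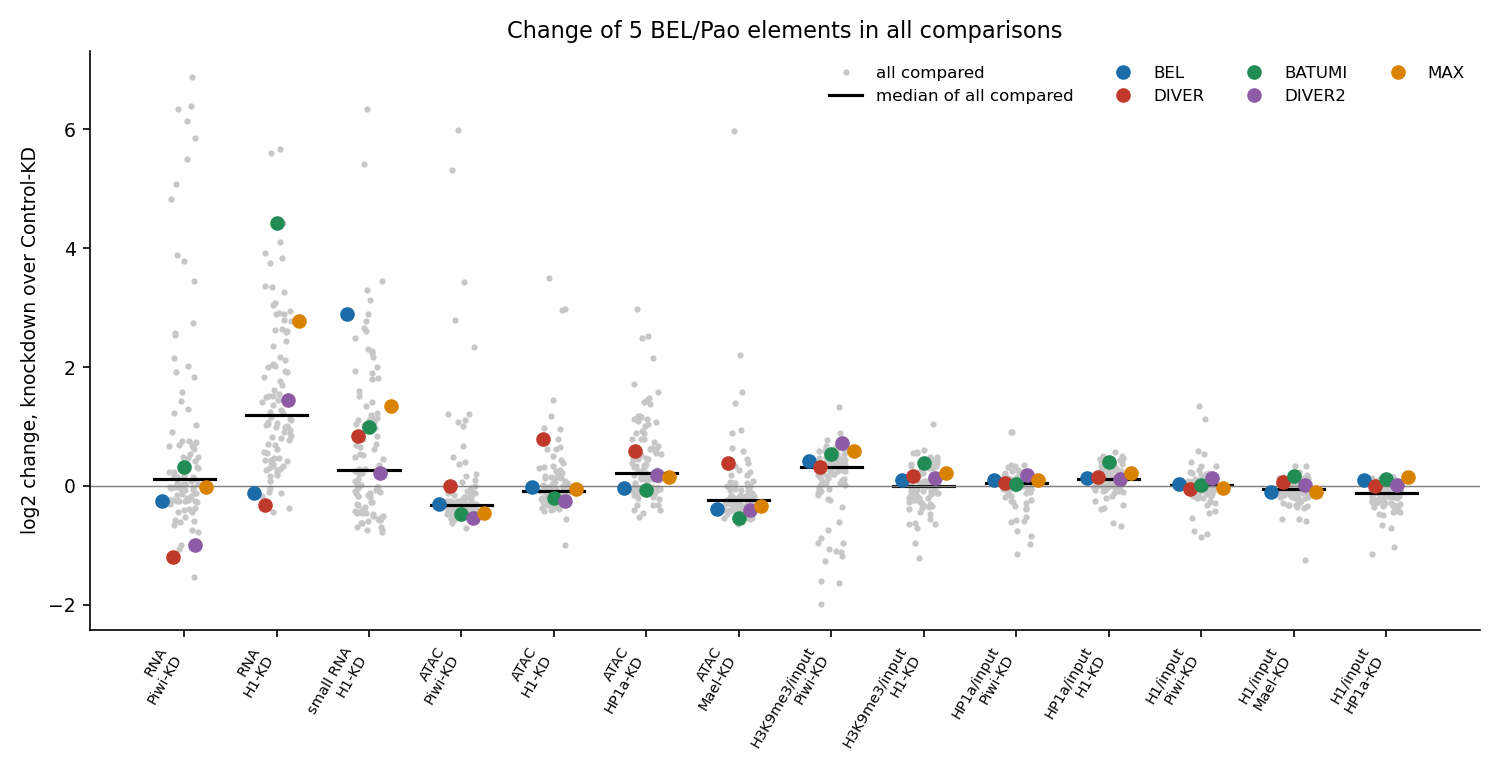
Log2 change of the 5 elements (coloured) among all 96 transposons compared (grey, with the median as a line) in 14 comparisons, with H1 set against the Control-KD library of the same number. BATUMI (4.42) and MAX (2.77) stand above the median of RNA in H1-KD, BEL (2.90) above that of small RNA, DIVER above that of ATAC in H1-KD (0.79), and DIVER (-1.19) and DIVER2 (-0.99) below that of RNA in Piwi-KD.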

How the data were processed

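The authors deposited 11 tables of 29 columns. Values deposited for RNA, ATAC, ChIP and input are RPKM, and those deposited for small RNA are RPM. Both units were inferred: a length in whole bases for each row and a whole total for each column turned the values into whole reads, within 0.05, for 3606 of 3606 nonzero values and 128 of 129 transposons. Per the submitters' processing notes, cutadapt, Bowtie 1.0.1, Bowtie2 2.0.6, TopHat2 2.0.7, Cufflinks 2.1.1, MACS2 and build dm3 were used. How reads that match related families were counted, which reads the totals count, and any shift of ATAC reads to the transposase's cut are points on which the sources used here are silent, and values of related rows such as DIVER and DIVER2 are therefore uncertain.

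The labels' titles gave each of the 34 samples its assay and knockdown (25 groups). A log2 change is the log2 ratio of knockdown + p to Control-KD + p, with p equal to 0.1 of the median nonzero value of a table (0.553 RPKM for RNA, 8.10 RPM for small RNA, 5.80 RPKM for ATAC, 4.45 to 4.63 RPKM for input, 4.51 to 13.2 RPKM for ChIP), which understates changes of low rows. Each ChIP value was taken over its own input (same knockdown, same number). Rows in the lowest 25% by mean over all columns of an assay, 33 of 129, were left out, so a row low in Control-KD is kept where a knockdown is high. Thresholds were 2-fold for RNA and small RNA and 1.5-fold for ATAC and ChIP. The 95% counting intervals are Clopper-Pearson (exact) between 2 libraries, and for ChIP over input they come from the normal approximation to log counts. They cover counting error only, since PCR copies cannot be told from separate molecules here. H1 over input was fitted with limma 3.58.1 in R 4.3.3, with Benjamini-Hochberg adjustment over the transposons and 2 residual degrees of freedom per transposon. Limma pooled the variance fully, so all 96 transposons had the same standard error, 0.195. The p-values therefore rest on a spread averaged over transposons and not on an element's own. Nothing says that same-group samples came from separate cultures, so that spread is only the one between these libraries, which may be technical. A limma test over replicate ATAC samples was foreseen for 10 samples, but the table holds 5 columns, 1 per condition, so it was replaced by the 1.5-fold rule. The code was tested on simulated data with known lengths, totals and changes.

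Named are all 5 elements, the roo rows, 15 elements of a list of Piwi targets as counts, and for each element the 2 outside rows with the most similar changes. Elements and lists were chosen with earlier results of these data known. Alternatives were a smaller and a larger pseudocount, no filter, centring on the median transposon, ChIP without input, ATAC over input, and leaving out each Control-KD library.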

Additional observations from a re-analysis of the deposited data

How the results depend on the processing

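No paired analysis was possible because a knockdown library shares its number with 1 Control-KD library only, and 1 pair leaves no replicate. The filter changed no count of elements past a threshold. With the pseudocount at 0.01 of the median, 2 elements (DIVER and DIVER2) passed 2-fold for RNA in Piwi-KD in place of 1, and 1 passed 1.5-fold for ATAC in Piwi-KD (DIVER2) and in HP1a-KD (DIVER) in place of 0. For small RNA in H1-KD 3 then passed in place of 2, with BATUMI added at 1.055. With the pseudocount equal to the median, 2 elements (BATUMI and MAX) passed for RNA in H1-KD in place of 3, 1 (BEL) for small RNA in place of 2, and 0 for H3K9me3 in Piwi-KD in place of 2. Centred on the median transposon, 2 passed for RNA in Piwi-KD, 1 (DIVER) for ATAC in Mael-KD and 0 for H3K9me3 in Piwi-KD. For RNA in H1-KD 4 passed when centred, in place of 3: BATUMI and MAX higher, BEL and DIVER lower, and DIVER2 no longer. Without input 0 passed for H3K9me3 in Piwi-KD, and over input 1 (DIVER) passed for ATAC in HP1a-KD. The median H1 over input of the 5 in Control-KD, 1.21, was 1.15 to 1.25 with 1 library left out, and their median input, 91.2 RPKM, was 82.4 to 97.3.

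For H1 over input some changes near 0 took the other sign, with no limma adjusted p of theirs under 0.05. With the pseudocount equal to the median, DIVER stood at 0.046 in Piwi-KD, BATUMI at -0.020 in Mael-KD, and BEL, BATUMI and MAX at -0.021, -0.0023 and -0.024 in HP1a-KD. Centred, BEL, BATUMI and MAX stood at -0.0015, -0.037 and -0.057 in Piwi-KD, DIVER2 and MAX at 0.023 and 0.010 in Mael-KD, and DIVER and DIVER2 at 0.16 and 0.15 in HP1a-KD. Without input, DIVER stood at 0.17 in Piwi-KD, DIVER and BATUMI at -0.11 and -0.33 in Mael-KD, and BEL and MAX at -0.0068 and -0.034 in HP1a-KD. Against the Control-KD library of the same number, MAX stood at -0.026 in Piwi-KD, and DIVER2 at 0.021 in Mael-KD and 0.014 in HP1a-KD. With 1 Control-KD library left out, DIVER in Piwi-KD ranged from -0.021 to 0.0093, and in HP1a-KD DIVER2 ranged from -0.093 to 0.042, BEL from -0.050 to 0.065 and MAX from -0.052 to 0.079. The cause of these shifts was not tested.

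Across all 96 transposons, RNA counts past 2-fold in H1-KD were 32 with the larger pseudocount and 35 when centred, in place of 56, and small RNA counts 14 with the larger pseudocount in place of 32. For H3K9me3 in Piwi-KD, 26 passed 1.5-fold (13 higher), 10 with the larger pseudocount (1 higher), 33 with the smaller (20 higher), 15 when centred (1 higher) and 19 without input (7 higher). Centring changed the split for RNA in H1-KD to 24 higher of 35, for small RNA to 23 of 26, and for ATAC to 14 of 14 in Piwi-KD, 22 of 26 in HP1a-KD and 11 of 11 in Mael-KD. Limma calls for H1 in Piwi-KD, 5 in all, were 1 to 10 with 1 Control-KD library left out. The lowest read counts behind a change of the 5 were 82 for MAX small RNA in Control-KD and 110 for DIVER2 RNA in Piwi-KD.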
